A study of Mus musculus with 8 samples.

Results

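Transcripts of lymphocyte function-associated antigen 1 (LFA-1), of the α6 and β1 integrin chains and of the proteins that switch integrins on were measured in Tregs, regulatory CD4+ T cells that hold immune responses in check. The 10 genes were chosen by name: Itgal and Itgb2, the chains of LFA-1, Itga6 and Itgb1, its ligands Icam1 and Icam2, and the activators Tln1, Fermt3, Rap1a and Rap1b. Each was represented by its probe set annotated to 1 gene symbol, and all 10 were among the 19937 genes measured. The cells came from bone marrow chimeras. The recipients were CD3ε-/- mice, which lack part of the T cell receptor (TCR) complex and so form no T cells of their own, and they were lethally irradiated. They received marrow of WT donors (WT chimeras, called WT-CD3KO in the labels) or of IIKO donors (IIKO chimeras, IIKO-CD3KO). The labels describe Tregs of the IIKO chimeras as having no TCR contact with MHC class II outside the thymus, do not spell out the disrupted gene, and give C57BL/6 mice of 6 to 8 weeks. All recipients thus shared the CD3ε deletion, irradiation and transplantation, and whatever class II their radioresistant cells still carry was not measured here. At 28 days, CD4+ TCRβ+ CD25+ cells were sorted from peripheral lymph nodes and spleen, and RNA of each of 4 biological replicates per group was hybridized to 1 Affymetrix array. The labels do not say how many mice each replicate pooled.

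Integrins are surface receptors made of an α and a β chain that bind other cells or the matrix. LFA-1, the pair of αL (Itgal) and β2 (Itgb2), binds ICAMs and holds T cells to antigen-presenting cells and vessel walls; β1 (Itgb1) pairs with many α chains, and with α6 forms a laminin receptor. T cells keep these receptors in a low-affinity state until TCR or chemokine signals load the small GTPases RAP1A and RAP1B with GTP, after which talin (Tln1) and kindlin-3 (Fermt3) bind the β tail. That step acts on proteins, and the values here are transcript levels.

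Values are log2 expression per probe set, so a difference of 1 is a 2-fold change, and levels of different genes are not compared. Array medians lay between 6.96 and 7.03, and precision is limited by having 4 arrays a group. Cells of the intended kind were present in every array: Cd3e, the gene disrupted in the recipients, was at 11.81 to 11.97 in WT and 11.83 to 11.89 in IIKO chimeras, Foxp3 at 10.58 to 10.68 and 10.53 to 10.81, Cd4 at 10.56 to 10.72 and 10.69 to 10.84, and Il2ra, which encodes CD25, at 11.95 to 12.06 and 12.06 to 12.25. As a check of the IIKO label, the class II chain gene H2-Eb1 had means of 8.29 in WT and 7.60 in IIKO chimeras (limma, Benjamini-Hochberg adjusted p = 0.00746), a difference of -0.69 ± 0.08 (log2, SE). H2-Aa and H2-Ab1 had differences of -0.77 ± 0.21 and -0.71 ± 0.24 that did not pass (adjusted p = 0.166 and 0.207). For these chains IIKO array 3 went against the other IIKO arrays, with H2-Aa at 8.06 (WT range 7.99 to 8.30) and H2-Ab1 at 8.27 (WT range 7.87 to 8.39), both among the WT values. The invariant chain Cd74 had a difference in the other direction, 0.57 ± 0.17 (adjusted p = 0.174). With IIKO array 3 left out, too, 0 of the 10 genes passed.

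None of the 10 genes passed the test between IIKO and WT chimera Tregs. Limma called 0 of 10 at an adjusted p under 0.05, against 0.286% of all genes, and 1 of 10, Itgb1, at an unadjusted p under 0.05, against 17.3% of all genes in either direction and 5.27% in that of Itgb1. The differences, IIKO minus WT, ran from -0.09 for Itgb2 to 0.27 for Itgb1. Their median was 0.010 and that of all genes -0.038. All 10 were among the brighter genes, those above the median level, and the median of these brighter genes alone was 0.011. When the arrays were quantile normalized once more, the median of the 10 was -0.027 and that of all genes -0.0069. With arrays centred on their medians these were 0.061 and 0.0125. In 9 of 10 genes the 95% confidence interval lay within a 1.3-fold change in either direction; the exception was Itgb1. Because this is RNA of bulk sorted cells, fewer cells expressing a gene and less RNA per cell cannot be told apart.

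**Figure D1:**
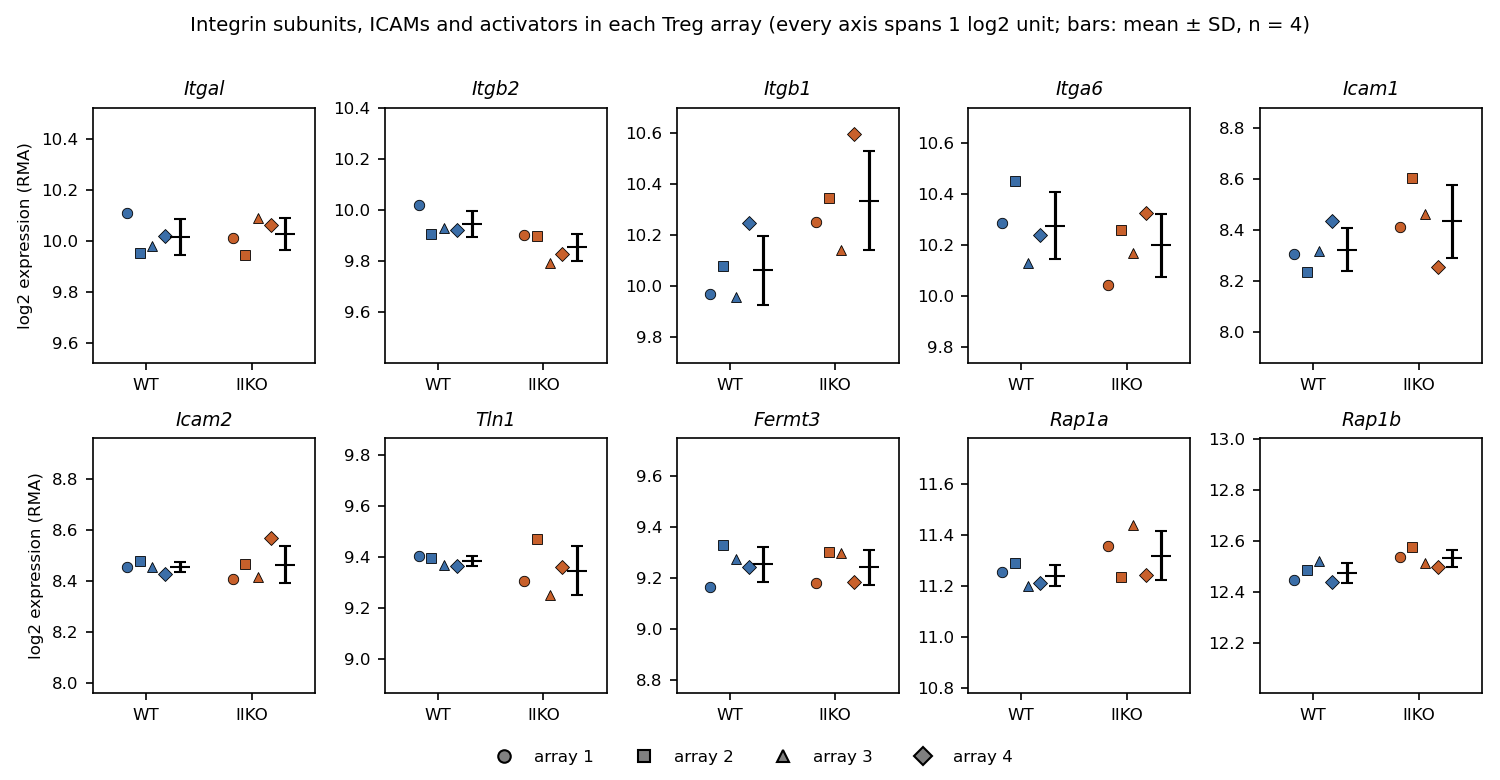
Log2 expression (RMA) of the 10 genes in each array of WT (blue) and IIKO (orange) chimera Tregs, with 1 marker shape per array number and bars for mean ± SD (n = 4 arrays). Each vertical axis spans 1 log2 unit; the groups overlap for every gene except Itgb2, and Itgb1 shows the widest gap between means, 0.27.

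The αL chain of LFA-1 was nearly level between the groups. Itgal was at 10.11, 9.95, 9.98 and 10.02 in WT arrays 1 to 4 and at 10.01, 9.94, 10.09 and 10.06 in IIKO arrays 1 to 4. The groups overlapped over almost their whole ranges. The difference of 0.012 ± 0.058 (log2, SE) had a 95% interval of -0.12 to 0.14, so the data leave room for a level 1.10-fold higher or down to 0.92 of that in WT chimeras, and its sign turned after a further quantile normalization.

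The β2 chain, which LFA-1 shares with the myeloid integrins of αM, αX and αD, was slightly lower in every IIKO array. Itgb2 was at 10.02, 9.91, 9.93 and 9.92 in WT arrays 1 to 4 and at 9.90, 9.90, 9.79 and 9.83 in the IIKO arrays. The lowest WT array, at 9.908, stood just above the highest IIKO array, at 9.901, so the groups did not overlap, as for 10.5% of all genes in either direction, 7.69% in this one and 2.83% in the other. The difference of -0.09 ± 0.05 (SE) did not pass (limma adjusted p = 0.397), and its 95% interval was -0.21 to 0.03. It was -0.040 with arrays centred on their medians and -0.13 when they were quantile normalized once more, where its unadjusted limma p was 0.0282. Itgb2 was the 1 gene of the 10 with separate groups.

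The β1 chain had the largest difference of the 10. Itgb1 was at 9.97, 10.08, 9.95 and 10.24 in WT arrays 1 to 4 and at 10.25, 10.34, 10.14 and 10.60 in the IIKO arrays. Of the IIKO arrays, 3 stood above every WT array, array 1 by less than 0.01, and IIKO array 3 lay between WT arrays 2 and 4. IIKO array 4 was the highest of all, and WT array 4 was the highest of its group. The means were 10.06 ± 0.13 and 10.33 ± 0.19 (SD, n = 4 arrays each), 1.21-fold apart (95% interval 1.03 to 1.41). The difference of 0.27 ± 0.10 (SE) had a limma unadjusted p of 0.0226 and an adjusted p of 0.228. A larger positive difference was found for 548 genes, or 2.75% of all genes. With single arrays left out the difference ran from 0.19, without IIKO array 4, to 0.34, without IIKO array 3, and its unadjusted limma p was no longer under 0.05 when WT array 1 (0.0597), WT array 3 (0.0622) or IIKO array 4 (0.0603) was left out. The same held when the arrays were quantile normalized once more (0.0600). Under all other refitted alternatives the unadjusted limma p of Itgb1 stayed under 0.05. It was 0.00193 with the replicate number as a block (adjusted p = 0.163) and 0.00701 with arrays centred on their medians (adjusted p = 0.189). Given its spread in the main fit, Itgb1 would have needed a difference of 0.60 to pass.

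The α6 chain, the laminin-binding partner of β1, differed in the other direction by less than its spread. Itga6 was at 10.29, 10.45, 10.13 and 10.24 in the WT arrays and at 10.04, 10.26, 10.17 and 10.33 in the IIKO arrays. Only IIKO array 1 lay below all WT arrays. The difference was -0.08 ± 0.08 (SE; limma adjusted p = 0.642); it shrank to -0.020 with WT array 2 and to -0.026 with IIKO array 1 left out, grew to -0.13 and -0.12 when WT array 3 or IIKO array 4 was dropped, and was -0.028 with arrays centred on their medians.

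The LFA-1 ligands are displayed by T cells as well as by the cells they meet. Icam1, the ligand that inflammatory signals induce, was at 8.30, 8.23, 8.32 and 8.43 in the WT arrays and at 8.41, 8.60, 8.46 and 8.25 in the IIKO arrays. IIKO arrays 2 and 3 were above every WT array, while IIKO array 4 was close to the lowest WT array. The difference of 0.11 ± 0.08 (SE) did not pass (limma adjusted p = 0.480), and its interval of -0.065 to 0.29 reaches a 1.22-fold higher level. It was 0.053 without IIKO array 2 and 0.17 without IIKO array 4, where alone its unadjusted limma p was under 0.05 (0.0436; adjusted p = 0.233). Icam2, the ligand that resting lymphocytes and endothelium carry constitutively, was at 8.46, 8.48, 8.46 and 8.43 in WT and at 8.41, 8.47, 8.42 and 8.57 in IIKO chimeras. Its WT arrays were close together. IIKO array 4 alone stood above them, and IIKO arrays 1 and 3 lay below them. The difference of 0.009 ± 0.054 (SE) turned negative after a further quantile normalization.

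Icam1 is a textbook target of NF-κB, a transcription factor that TCR signals activate, and its promoter is printed to show the site. Of the 10 genes, Fermt3, Icam1, Itgb1, Rap1b and Tln1 had an entry in the RefSeq promoter table (build GRCm38.p6). The Icam1 entry, chr9:21015690-21015989 on the + strand, runs from 250 bases before to 50 after the annotated start. Capitals mark the κB letters GGAAATTCC, searched on both strands; the match begins 153 bases before the start.
Icam1 promoter: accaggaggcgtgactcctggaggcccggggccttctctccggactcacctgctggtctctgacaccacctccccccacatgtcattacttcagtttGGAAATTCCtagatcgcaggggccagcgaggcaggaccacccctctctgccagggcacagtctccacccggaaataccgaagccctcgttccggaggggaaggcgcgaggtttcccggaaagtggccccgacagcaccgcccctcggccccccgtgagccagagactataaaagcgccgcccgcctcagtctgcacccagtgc
The same letters occurred in 104 of 32851 promoter entries of that length (0.317%) and in 1 of the 5 genes with an entry. Icam1, which carries the letters, overlapped between the groups as given above; a match is a description of letters and not of binding.

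The adaptors that bind β tails were steady. Tln1, which encodes talin-1, was at 9.41, 9.40, 9.37 and 9.36 in the WT arrays and at 9.31, 9.47, 9.25 and 9.36 in the IIKO arrays. The WT arrays were close together, and the IIKO arrays spread to both sides of them. The difference of -0.0375 ± 0.059 (SE) turned positive when arrays were centred on their medians, and was -0.079 without IIKO array 2 and -0.0050 without IIKO array 3. Fermt3, which encodes kindlin-3, the kindlin of blood cells, was at 9.17, 9.33, 9.27 and 9.24 in WT and at 9.18, 9.30, 9.30 and 9.19 in IIKO chimeras. The IIKO range lay inside the WT range. Its difference of -0.012 ± 0.059 (SE) also turned positive with centred arrays.

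The RAP1 GTPases had small positive differences. Rap1a was at 11.26, 11.29, 11.20 and 11.21 in the WT arrays and at 11.36, 11.24, 11.44 and 11.24 in the IIKO arrays. IIKO arrays 1 and 3 lay above all WT arrays, and arrays 2 and 4 lay among them. The difference was 0.079 ± 0.061 (SE; limma adjusted p = 0.512), and 0.039 without IIKO array 3. Rap1b was at 12.45, 12.48, 12.52 and 12.44 in WT and at 12.54, 12.58, 12.52 and 12.50 in IIKO chimeras. The 2 highest IIKO arrays, 1 and 2, lay above all WT arrays, and WT array 3 stood within the IIKO range. The difference was 0.0585 ± 0.050 (SE; adjusted p = 0.554), and 0.11 with arrays centred on their medians. RAP1A and RAP1B are close relatives, and whether probes of one also bind the other's transcripts was not tested. A further probe set annotated to both Rap1a and Gm9392 was not used.

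**Figure D2:**
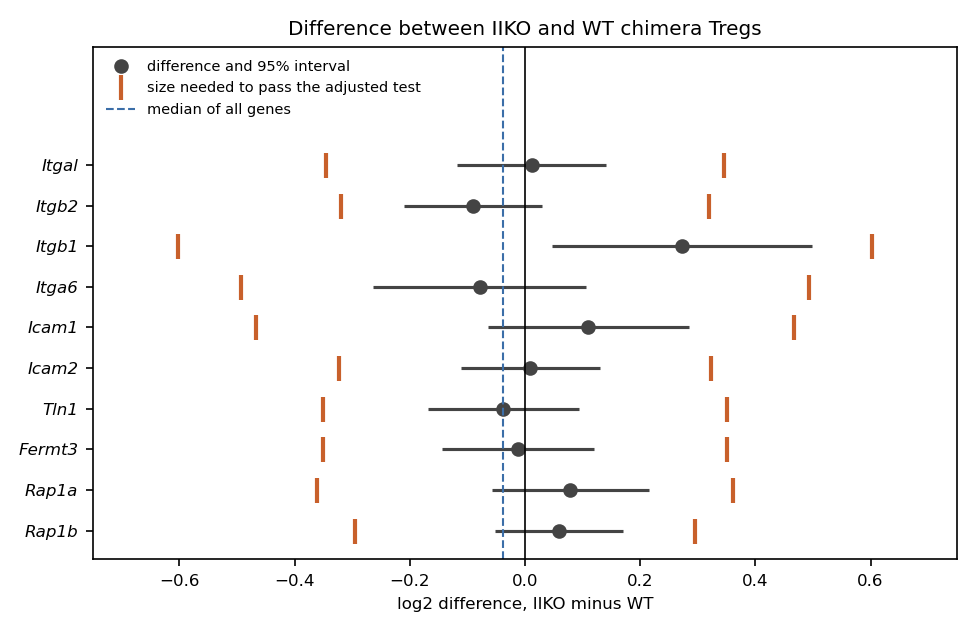
Log2 difference, IIKO minus WT, of the 10 genes with its 95% confidence interval (black), and the size in either direction that each gene would have needed to pass limma's adjusted test (orange ticks). The needed sizes run from 0.30 for Rap1b to 0.60 for Itgb1, and no point reaches its tick; the dashed line is the median of all genes, -0.038.

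The precision differed between the genes. The residual SD of the fit ran from 0.036 for Rap1b to 0.167 for Itgb1, and it was below the all-gene median of 0.104 for 7 of the 10. The size needed to pass was taken from limma's moderated SE of each gene and not from this residual SD. At the p at which the last gene was called, 0.000136, it ran from 0.30 to 0.60 for the 10 genes. This corresponds to a 1.23-fold change for Rap1b, 1.25-fold for Itgb2, 1.27-fold for Itgal and 1.52-fold for Itgb1. These sizes hold for the spread of these arrays. They are not a strict minimum, because the limit on p rises slightly with each further gene called.

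Itgal lies on chromosome 7, which carries 17 of the 57 genes called. That chromosome holds 1734 of the 19855 measured genes with a position. In the order of measured genes, Gdpd3, a glycerophosphodiester phosphodiesterase with a difference of 6.11, was the nearest called gene, with 31 genes between it and Itgal. Apobr, a lipoprotein receptor (-0.56), and Cln3, a lysosomal membrane protein (-1.0), followed on the same side, 40 and 41 places from Itgal; all 3 were named for their position. Of the 120 genes within 60 places of Itgal, these 3 passed and the others did not, against 0.286% called over all genes. None of the 10 genes of the LFA-1 and β1 group had a called gene among the nearest 20 measured genes on either side (21 genes in all for Itgb1, near the end of its chromosome). At a share of 0.286% over all genes, windows without a called gene are common. The order was taken from GRCm38.p6, and genotypes of the donors were not analysed here.

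**Figure D3:**
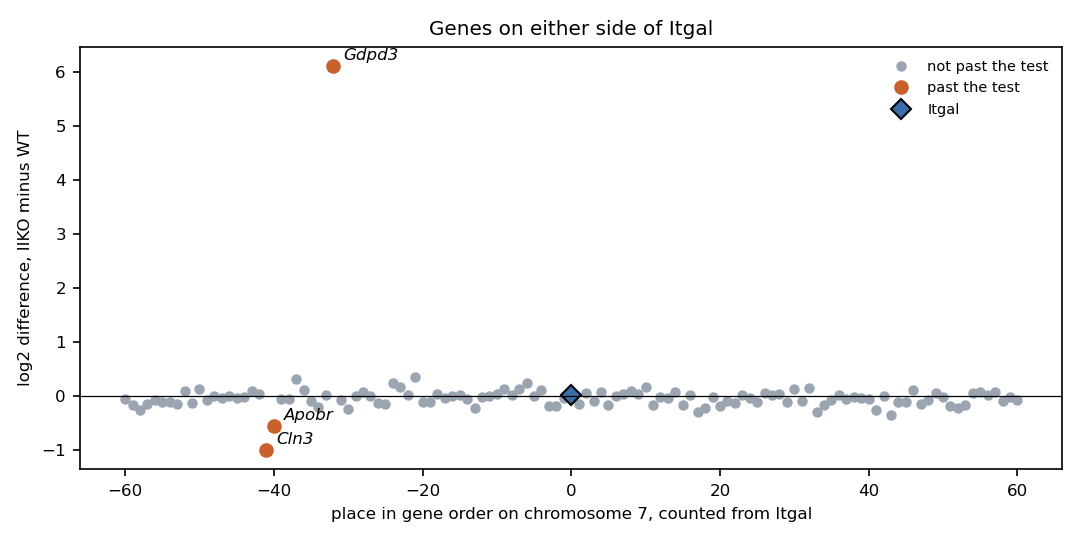
Log2 difference, IIKO minus WT, of the 120 measured genes within 60 places of Itgal in gene order on chromosome 7 (grey, not past the test; orange, past it; blue diamond, Itgal). Gdpd3 stands at 6.11, Apobr at -0.56 and Cln3 at -1.0, while Itgal lies at 0.012 among neighbours that did not pass.

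The rest of the pathway was followed in 5 lists, with 81 of 84 genes measured (Rapgef4, Ptk2 and Spp1 were not analysed here). Limma called 0 of the 81, against 0.286% of all genes; at an unadjusted p under 0.05 there were 11, 4 higher and 7 lower in IIKO chimeras, or 13.6% against 17.3% of all genes. The lowest adjusted p was 0.1605, that of Cd81.

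Among 22 other integrin chains, 0 passed and 4 were lower at an unadjusted p under 0.05, against 12% of all genes in that direction; the list's median was -0.039. Itgb8, whose αv partner forms the TGF-β-activating integrin αvβ8 of Tregs, was at 10.08, 9.61, 9.88 and 10.23 in the WT arrays and at 9.61, 9.52, 9.64 and 9.72 in the IIKO arrays. WT array 2 lay with the IIKO arrays, and the difference was -0.33 ± 0.12 (SE; limma adjusted p = 0.219). Itga11 and Itgb6, integrin chains of fibroblasts and epithelium, differed by -0.19 and -0.18 (adjusted p = 0.2085 and 0.222), with Itgb6 at 4.32 to 4.71 over all arrays, below the lower quartile of gene levels, 6.04. Itga4, the α chain of VLA-4, a β1 integrin of lymphocytes, was named after its values were seen. It was at 10.78 to 11.14 in WT and 10.39 to 10.92 in IIKO chimeras, and its difference of -0.22 had a limma adjusted p of 0.362.

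The machinery around RAP1, talin and kindlin had 0 of 28 past the test and 2 higher at an unadjusted p under 0.05, against 5.27% of all genes in that direction, with a median of 0.002. Fyb, encoding ADAP, the adaptor that couples the TCR to integrins, was at 11.80 to 11.92 in WT and 11.94 to 12.12 in IIKO chimeras. Its groups did not overlap (0.14, limma adjusted p = 0.264), as for 2.83% of all genes in this direction. Rasgrp2, the exchange factor CalDAG-GEFI that loads RAP1 with GTP, differed by 0.13, with groups overlapping at 9.37 (adjusted p = 0.281). Prkd2, a kinase activated by diacylglycerol, was at 9.27 to 9.34 and 9.39 to 9.45 (0.11, adjusted p = 0.294). Of inhibitors of integrin activation, 0 of 11 passed and 1 was higher unadjusted, Sipa1l1, a GTPase-activating protein of RAP proteins, at 8.25 to 8.48 in WT and 8.53 to 8.70 in IIKO chimeras (0.23 ± 0.07, SE; adjusted p = 0.172). Cytip, which binds cytohesin-1, differed by 0.10 and Rasa3, a GTPase-activating protein of RAS and RAP1, by 0.12 (adjusted p = 0.364 and 0.422). The groups of Cytip and Rasa3 overlapped.

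**Figure D4:**
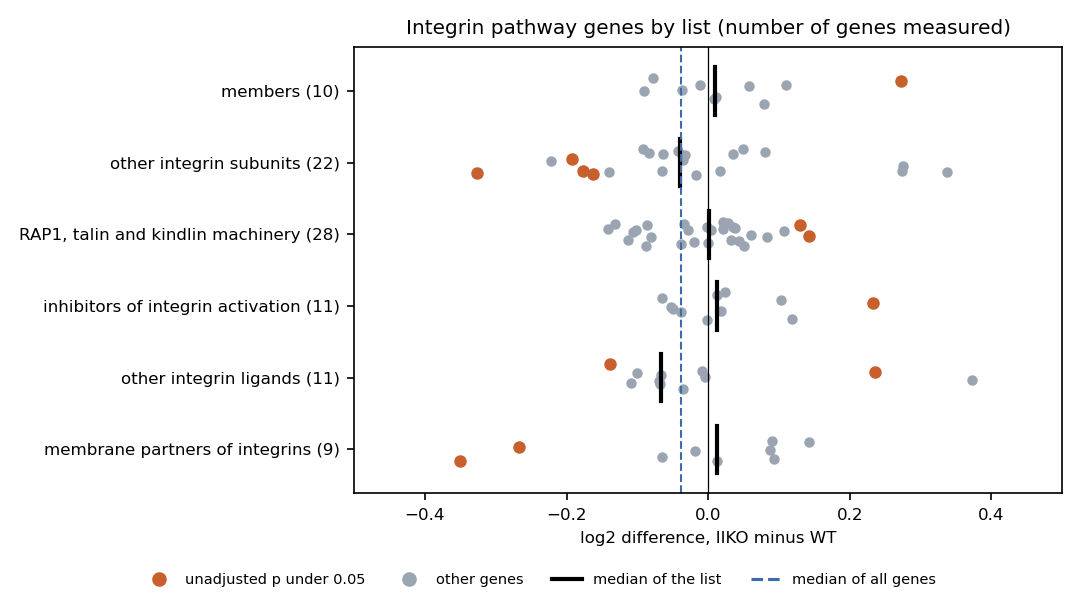
Log2 difference, IIKO minus WT, of each measured gene of the LFA-1 and β1 group (top, labelled members) and of the 5 other pathway lists (1 point per gene; orange, unadjusted limma p under 0.05; black bar, median of the list; dashed line, median of all genes). Points lie on both sides of 0 in every list, and 0 of them passed the adjusted test.

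Other integrin ligands had 0 of 11 past the test. At an unadjusted limma p under 0.05, 1 was higher and 1 lower, against 5.27% and 12% of all genes. Lamc1, a laminin chain, differed by 0.24 and Lama4 by -0.14 (limma adjusted p = 0.231 and 0.248). Lama4 was at 5.38 to 5.66 over all arrays, below the lower quartile of gene levels, 6.04. Vcam1, the ligand of VLA-4, was at 7.09 to 7.64 in WT and 7.32 to 8.25 in IIKO chimeras (0.37, adjusted p = 0.340), highest in IIKO array 3 and with a difference of 0.17 without that array. Membrane partners of integrins had 0 of 9 past the test and 2 lower at an unadjusted limma p under 0.05, against 12% of all genes. Cd81, a tetraspanin that associates with β1 integrins, was at 10.54 to 10.78 in WT and 10.33 to 10.53 in IIKO chimeras without overlap (-0.27 ± 0.07, SE; adjusted p = 0.1605). Groups without overlap and lower in IIKO chimeras were found for 7.69% of all genes. Cd81 lies on chromosome 7, as do other genes of these lists, among them Prkd2, which differed by 0.11 in the other direction. Cd9, also a tetraspanin, differed by -0.35 (adjusted p = 0.278), and by -0.20 without WT array 3. Cd53, a leukocyte tetraspanin, differed by 0.09 (adjusted p = 0.350).

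Several of these genes are also made by other cells, so marker lists were read in the same arrays. The mean of 12 myeloid and dendritic markers lay at 6.055 to 6.28 in WT and 5.97 to 6.38 in IIKO chimeras, highest in IIKO array 3, where Vcam1 was highest and Itgb2 lowest, and lowest in IIKO array 4, where Itgb1 was highest. Of these 12, 5 had means under that lower quartile, and the brightest was Cd68 (7.66 to 8.31 over all arrays). The mean of 5 platelet markers lay at 6.80 to 7.54 and 6.98 to 7.46, with Ppbp at 7.18 to 9.10; platelets carry kindlin-3, β1 and α6. In WT arrays 1 to 4 that mean was 6.90, 7.25, 6.80 and 7.54, the order of Itgb1 there, and in IIKO arrays 1 to 4 it was 6.98, 7.30, 7.46 and 7.03, which is not the order of Itgb1. Pf4, a platelet chemokine named after its values were seen, was at 5.80 to 7.55 and 6.28 to 7.78, a difference of 0.53 ± 0.42 (SE; limma adjusted p = 0.520). The means of 7 B cell markers (6.07 to 6.28 and 6.08 to 6.17; brightest Cd79b) and of 8 NK and CD8 T cell markers (7.13 to 7.33 in both; brightest Gzmb, which Tregs can also express) overlapped. Those of 8 endothelial and stromal markers did not, at 6.63 to 6.68 and 6.51 to 6.60 (brightest Col1a1). Taken singly, 1 of the 8 was lower without overlap, against 7.69% of all genes. All 8 had negative differences, and of all genes only 37.1% had a positive one. The means of 5 erythroid markers lay at 6.93 to 7.04 and 6.70 to 6.95, with 1 IIKO array, array 2, inside the WT range (brightest Alas2). None of these markers passed the test, and the part of other cells in any difference above was not tested.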

How the data were processed

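Each array has 1 log2 value per probe set, deposited by the authors after RMA in affy, which are the tools named per the submitters' processing notes (versions not given in the sources used here). This method, RMA, subtracts background, equalizes array quantiles and combines probes, so a shift common to all genes would be lost. Platform annotation gave 21640 of 34760 probe sets 1 symbol; the brightest per gene was kept (19937 genes), with no filter on dim genes. Titles set the groups. Limma 3.58.1 (R 4.3.3, lmFit and eBayes, both groups, 6 residual degrees of freedom) tested IIKO minus WT, two-sided, Benjamini-Hochberg adjusted over all genes, at 0.05. P-values reflect the spread of these samples, which may be partly technical. No array repeated another (smallest SD of a pair's difference 0.185). The fit was tested on simulated arrays.

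The size needed to pass is the moderated SE times the t value at the largest p called, with the other genes as they are. Gene order came from RefSeq's GRCm38.p6 table (19855 genes matched by identifier). The 10 genes and the lists were chosen with earlier results of these data known. Named are the 10, the 3 genes of smallest p in each pathway list, label checks and the brightest marker of each list of other cells; exceptions are stated. Alternatives: threshold 0.01, replicate block, quantile normalization again, median centring, the brighter genes, trended robust eBayes, weighted arrays, averaged probe sets, and leaving out each array. Figures used Python 3.11.15 and matplotlib 3.10.9.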

Additional observations from a re-analysis of the deposited data

Results flagged for a closer look

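In groups of 4 arrays, 1 array stood far from the other 3 by Dixon's test for 4 genes named in the text, of 78 groups examined; chance alone flags about 1 in 20 groups. None of the 10 genes of the LFA-1 and β1 group was among them. Vcam1 was high in WT array 4, at 7.64. Cd3e was low in IIKO array 1, at 11.83, a gap of 0.05 to the next array. H2-Ab1 was low in WT array 2, at 7.87. The B cell marker Cd79b was low in IIKO array 1, at 7.22.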

How the results depend on the processing

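Under every alternative run, limma called 0 of the 10 genes and 0 of the 81 pathway genes; the lowest adjusted p of any of the 10 was 0.163, for Itgb1 with the replicate number as a block. The count over all genes was 57, and became 21 at a threshold of 0.01 and 31 with the replicate block. The labels do not say whether equal replicate numbers pair the arrays. Same-number correlations of deviations ran from -0.068 to 0.22. The WT and IIKO arrays numbered 4 correlated best with each other, and no other array correlated best with its own number. These correlations cannot settle whether the arrays are paired. With single arrays left out the count ran from 32 to 50, and leaving out WT array 1 (32 genes), WT array 3 (33), IIKO array 1 (36), IIKO array 2 (32) or IIKO array 3 (35) moved it by over 1.5 times. Of the 10 genes, 6 kept their sign under all 15 refitted alternatives and 4 did not. A further quantile normalization gave -0.029 for Itgal and -0.024 for Icam2; arrays centred on their medians gave 0.013 for Tln1, 0.039 for Fermt3 and 0.0215 for Cd3e. With single arrays left out, Itgal ran from -0.0096 to 0.043, Icam2 from -0.025 to 0.028, Fermt3 from -0.041 to 0.014 and Ppbp from -0.23 to 0.33. Cd74 ran from 0.49 to 0.77 and passed without IIKO array 4 (adjusted p = 0.00589). The brighter genes alone leave out Itga11, Itgb6 and Lama4, which therefore have no value there. The causes were not tested. Signal over background could not be examined from summarized values.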
